A study of Rattus norvegicus with 30 samples.

Results

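Diisononyl phthalate (DINP) at 100 mM was set against its vehicle, 1% DMSO, after 24 h in primary rat hepatocytes. The comparison used 10 of the 30 arrays of the series, namely the 5 labelled 24 h and 100 mM and the 5 labelled 24 h and 1% DMSO. The cells were bought frozen as hepatocytes of male Sprague Dawley rats, were grown between collagen and Matrigel, and were dosed on the third day of culture. All groups share this cell source. Each array came from 1 well of a 6-well plate, and the labels call the wells independent cultures, but do not name their donors, so p-values measure the spread between these wells. The concentration is written as mM in the labels and is kept so, although the unit could not be checked. A lower dose, 25 mM for 24 h, and 100 mM and vehicle for 48 h, each with 5 arrays, were used to show where the 100 mM response differed. The series belongs to a set of separate studies of several compounds in such cells, so the comparison asks which transcripts the higher dose changed at the earlier time.

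DINP is a plasticiser of the phthalate class, whose monoester metabolites can activate PPARα, a nuclear receptor that dimerises with RXR in liver. Ligands of PPARα raise transcription of genes that carry fatty acids into the cell, activate them to acyl-CoA, and oxidise them in peroxisomes and mitochondria. In rodents such ligands are known as peroxisome proliferators, after the growth in peroxisome number that they cause.

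The largest changes were rises of fatty acid genes. Of 15 tested enzymes of peroxisomal β-oxidation 12 rose and 1 fell, and of 24 genes of mitochondrial β-oxidation and the carnitine shuttle 20 rose and 0 fell. Ehhadh, the bifunctional enzyme of peroxisomal β-oxidation, rose 6.73-fold. Among the falls, Ccn2, which encodes a secreted matricellular protein, was 4.36-fold lower and Cyp7a1, which limits the rate of bile acid synthesis, 2.31-fold lower. Over all 10604 genes tested, 800 were higher (7.54%) and 744 lower (7.02%), 14.6% in all, at an adjusted p under 0.05. Levels throughout are log2(signal + 16), and differences are log2 with limma's standard error and Benjamini-Hochberg adjusted p, from a fit to all arrays of the series.

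The upstream sequence of 4 of the genes is printed because each of them was called, and because each holds a short motif of a factor linked to its gene list. PPARα with RXR binds repeats of the half-site AGGTCA, and TEAD factors, through which YAP acts, bind GGAATG. The 250 bases before the start are given 5′ to 3′ on the gene's strand, from RefSeq on GRCr8, with matches to either strand of AGGTCA (Fabp1, Eci1 and Cyp4a3) or GGAATG (Ccn2) in capitals. Fabp1 lies on the plus strand at chr4:104749090-104749339, Eci1 on the plus strand at chr10:13961000-13961249, Cyp4a3 on the minus strand at chr5:134352237-134352486 and Ccn2 on the minus strand at chr1:22624615-22624864.
Fabp1: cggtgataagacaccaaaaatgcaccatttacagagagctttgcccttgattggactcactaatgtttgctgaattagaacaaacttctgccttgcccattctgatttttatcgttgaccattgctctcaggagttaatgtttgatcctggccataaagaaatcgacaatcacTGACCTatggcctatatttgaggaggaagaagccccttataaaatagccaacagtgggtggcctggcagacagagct
Eci1: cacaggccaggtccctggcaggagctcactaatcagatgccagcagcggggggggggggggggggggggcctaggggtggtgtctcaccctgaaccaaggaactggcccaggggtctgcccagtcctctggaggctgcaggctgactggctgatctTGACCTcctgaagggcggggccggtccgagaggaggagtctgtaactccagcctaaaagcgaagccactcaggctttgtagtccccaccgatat
Cyp4a3: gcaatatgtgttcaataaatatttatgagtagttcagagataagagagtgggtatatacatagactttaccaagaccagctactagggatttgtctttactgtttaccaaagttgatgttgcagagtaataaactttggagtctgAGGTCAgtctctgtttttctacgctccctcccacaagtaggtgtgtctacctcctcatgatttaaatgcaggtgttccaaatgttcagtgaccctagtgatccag
Ccn2: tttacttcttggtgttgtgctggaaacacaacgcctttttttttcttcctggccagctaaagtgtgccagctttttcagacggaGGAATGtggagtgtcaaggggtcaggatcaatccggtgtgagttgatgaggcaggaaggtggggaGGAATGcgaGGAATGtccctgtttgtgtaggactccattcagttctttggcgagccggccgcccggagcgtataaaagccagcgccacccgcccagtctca
The AGGTCA match begins 77 bases before the start in Fabp1, 94 in Eci1 and 105 in Cyp4a3, and in the first pair it is read on the opposite strand, as TGACCT. Ccn2 holds GGAATG 3 times, beginning 166, 101 and 92 bases before the start. Over windows from 250 bases before to 50 after the start, AGGTCA on either strand was found in 19 of the 69 promoters available for the 77 members of 8 fatty acid lists that rose (27.5%), and in 16.2% of all 33469 promoters. From 150 bases before the start the shares were 21.7% and 11.1%. Of the 13 promoters available for the 15 rises named by size, 2 held it (15.4%). These genes were chosen by this comparison, so the shares are a description. An exact direct repeat of AGGTCA with 1 base between was in 0 of the 69 and in 0.0538% of all promoters. Of 13 falls named by size, 10 bright in both groups and 3 dim in 1, 11 had a promoter, and 3 of these held GGAATG (27.3%, against 14.2% of all), namely Ccn2, Diaph3 and Ppip5k1, and 0 held a CArG box, the site of the serum response factor, against 1.64% of all. A match is a stretch of letters and does not show that a factor binds there.

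The 10 largest rises among genes bright in both groups were those of Ehhadh, Cyp4a1, Pdk4, Cyp4a3, Acsl1, Serpine2, Acot4, Angptl4, Spc24 and Hilpda. Ehhadh lay at 10.51, 10.23, 10.59, 10.45 and 10.87 in the vehicle arrays and at 13.20, 13.26, 13.08, 13.41 and 13.46 at 100 mM. The difference was 2.75 ± 0.10 (adjusted p = 2.23e-19), with every treated array more than 2 log2 units above every vehicle array. Cyp4a1, a fatty acid ω-hydroxylase, lay at 13.08, 12.80, 12.81, 12.81 and 13.08 with vehicle and at 15.40, 15.50, 15.16, 15.57 and 15.49 with DINP, a 5.68-fold rise (2.51 ± 0.11, adjusted p = 1.96e-17). Its neighbour and relative Cyp4a3 started higher, at 13.41, 13.24, 13.31, 13.16 and 13.83, and reached 15.39, 15.28, 15.42, 15.57 and 15.60 (4.18-fold, 2.06 ± 0.11, adjusted p = 5.76e-16). The probes of such related genes can bind each other's transcripts, so the 2 rises are not certain to be separate. Pdk4, the kinase that shuts the pyruvate dehydrogenase complex, went from 11.95, 12.15, 11.81, 11.83 and 11.83 to 14.30, 14.37, 14.24, 14.50 and 14.40 (5.45-fold, 2.45 ± 0.11, adjusted p = 2.13e-17). Both of its groups were narrow, and they lay far apart.

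Acsl1, which activates long-chain fatty acids to acyl-CoA, lay at 12.97, 13.06, 13.06, 13.03 and 13.34 in vehicle and at 14.80, 14.89, 14.81, 15.03 and 15.09 with DINP (3.56-fold, 1.83 ± 0.09, adjusted p = 1.95e-16). The fifth vehicle array stood above the other vehicle arrays and still well below all treated ones. Angptl4, a secreted inhibitor of lipoprotein lipase, went from 12.79, 12.80, 12.71, 12.45 and 12.69 to 14.54, 14.33, 14.37, 14.40 and 14.42 (3.30-fold, 1.72 ± 0.09, adjusted p = 1.73e-16). Hilpda, a lipid droplet protein that inhibits the lipase Pnpla2, went from 11.79, 12.05, 12.07, 11.92 and 11.57 to 13.30, 13.49, 13.70, 13.76 and 13.43 (1.66 ± 0.11, adjusted p = 1.55e-13). Acot4, a peroxisomal thioesterase that releases free acid from acyl-CoA, rose from between 10.88 and 11.46 to between 12.92 and 13.07 (1.74 ± 0.12, adjusted p = 6.03e-13). Serpine2, a secreted inhibitor of serine proteases, and Spc24, a subunit of the kinetochore complex that anchors microtubules, belong to no fatty acid list. Serpine2 rose from between 8.82 and 9.60 to between 10.78 and 11.37 (1.81 ± 0.12), and Spc24 from between 11.13 and 11.72 to between 12.91 and 13.21 (1.71 ± 0.11). In all 10 genes the 2 groups of arrays did not overlap, which the choice of these genes required.

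**Figure D1:**
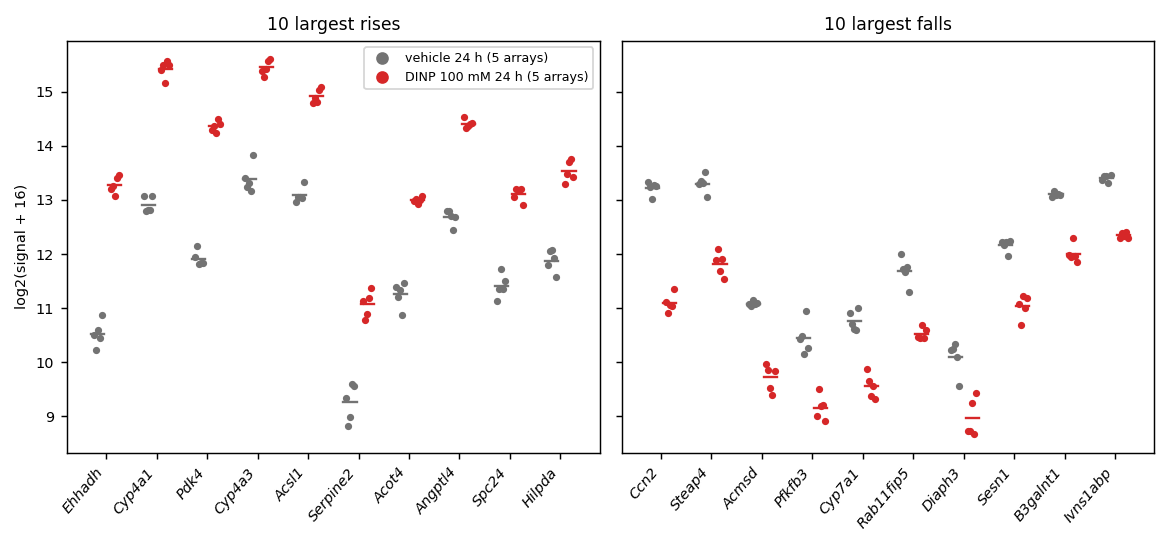
Each point is 1 array's log2(signal + 16) for the 10 largest rises (left) and 10 largest falls (right) among genes bright in both groups, with grey for vehicle, red for DINP 100 mM, and lines for means of 5 arrays. The groups are apart for every gene, most narrowly for Diaph3, where the highest treated array (9.43) lies just under the lowest vehicle array (9.55).

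Among the falls, Ccn2 lay at 13.33, 13.24, 13.01, 13.27 and 13.26 with vehicle and at 11.12, 10.91, 11.06, 11.04 and 11.35 with DINP (-2.13 ± 0.10, adjusted p = 1.96e-17). Steap4, a metalloreductase that handles iron and copper, went from 13.29, 13.35, 13.32, 13.51 and 13.05 to 11.89, 12.09, 11.68, 11.90 and 11.53 (2.80-fold lower, -1.49 ± 0.13, adjusted p = 4.83e-10). Acmsd, which diverts tryptophan breakdown away from NAD synthesis, was nearly constant with vehicle, at 11.07, 11.03, 11.15, 11.07 and 11.09, and was spread over 9.97, 9.85, 9.52, 9.40 and 9.84 at 100 mM (2.58-fold lower, -1.37 ± 0.17, adjusted p = 3e-07). Its treated arrays differed among themselves several times more than its vehicle arrays, and all of them lay lower. Cyp7a1 fell from 10.91, 10.70, 10.62, 10.60 and 11.01 to 9.87, 9.66, 9.37, 9.56 and 9.31 (-1.21 ± 0.17, adjusted p = 5.01e-06). Pfkfb3, which makes the glycolytic activator fructose 2,6-bisphosphate, went from 10.42, 10.48, 10.16, 10.95 and 10.27 to 9.01, 9.50, 9.18, 9.20 and 8.91 (-1.30 ± 0.20, adjusted p = 1.66e-05).

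The other large falls were those of Rab11fip5, an effector of recycling endosomes (-1.16 ± 0.11), Diaph3, a formin that assembles actin filaments (-1.14 ± 0.26, adjusted p = 0.00231), and Sesn1, a p53 target that restrains mTORC1 (-1.13 ± 0.11). They also took in B3galnt1, a glycosyltransferase of globoside synthesis (-1.10 ± 0.08), and Ivns1abp, a Kelch-repeat protein (-1.07 ± 0.07). B3galnt1 had 1 treated array at 12.29 above 4 others at 11.86 to 11.98, while the vehicle arrays lay between 13.06 and 13.17. Ivns1abp was among the tightest genes, at 13.32 to 13.47 with vehicle and 12.29 to 12.41 with DINP.

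Where a group mean lay below the dimmest mean tested, 7.956, signal above background is not shown, and a difference depends on the constant added before the log. Acot1, the cytosolic member of the thioesterase family, lay at 6.85, 4.80, 4.53, 6.40 and 4.40 with vehicle and at 10.46, 10.70, 10.64, 11.29 and 11.02 with DINP. The difference was 5.43 ± 0.35 (adjusted p = 1.2e-13), and 6.39 with a constant of 1 and 4.28 with a constant of 64. Of the same kind were the rises of Dnajb3, a heat shock cochaperone (2.02 ± 0.36), Pkhd1l1, a large membrane protein (1.91 ± 0.36), and Tpcn2, a cation channel of lysosomes (1.84 ± 0.34). Pkhd1l1 had 1 vehicle array at 5.69 and the other 4 at 7.76 to 8.90, against 9.44 to 10.04 with DINP. Hbb, a globin of red cells, stood at 6.81 to 7.15 with vehicle and at 9.05, 9.16, 8.97, 9.04 and 7.53 with DINP (1.73 ± 0.52, adjusted p = 0.0228). That call was lost without DINP 100 mM replicate 2 (1.63, adjusted p = 0.0531), 3 (1.678, 0.0516) or 4 (1.66, 0.0534). Trip11, a Golgi protein, fell from between 8.14 and 8.87 to between 7.36 and 7.87 (-0.84 ± 0.23, adjusted p = 0.0129). Ppip5k1, an inositol pyrophosphate kinase (-0.91 ± 0.30, adjusted p = 0.0438), and Fam72a (-0.80 ± 0.24, adjusted p = 0.0264) were called too. The call for Ppip5k1 was lost without any 1 vehicle array or DINP 100 mM replicate 2 (-0.578) or 3 (-0.822), and that for Fam72a without vehicle replicate 1 (-0.76) or DINP 100 mM replicate 2 (-0.758), 3 (-0.761) or 4 (-0.682). Median centring ended both calls, and that for Ppip5k1 was also lost with no filter, after quantile normalisation and with these groups alone in the fit.

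Most changes were small. The median size among called genes was 0.37, and 54 genes rose and 14 fell at least 2-fold. Under a size of 0.25 lay 214 rises and 89 falls, between 0.25 and 0.5 354 rises and 446 falls, and between 0.5 and 1 178 rises and 195 falls. Thus falls outnumbered rises in the middle of the range and rises outnumbered falls at both ends. Between 1 and 2 there were 48 rises and 13 falls, and from 2 upward 6 rises and 1 fall, that of Ccn2. The arrays of the 2 groups did not overlap for 1457 genes (13.7%), and 1165 of these were called. Scaling bears on the balance of small changes. Of 2288 probe sets called (12.3%), 45.1% were higher, but 70.8% were with arrays centred on their medians and 51.0% with quantile normalisation.

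**Figure D2:**
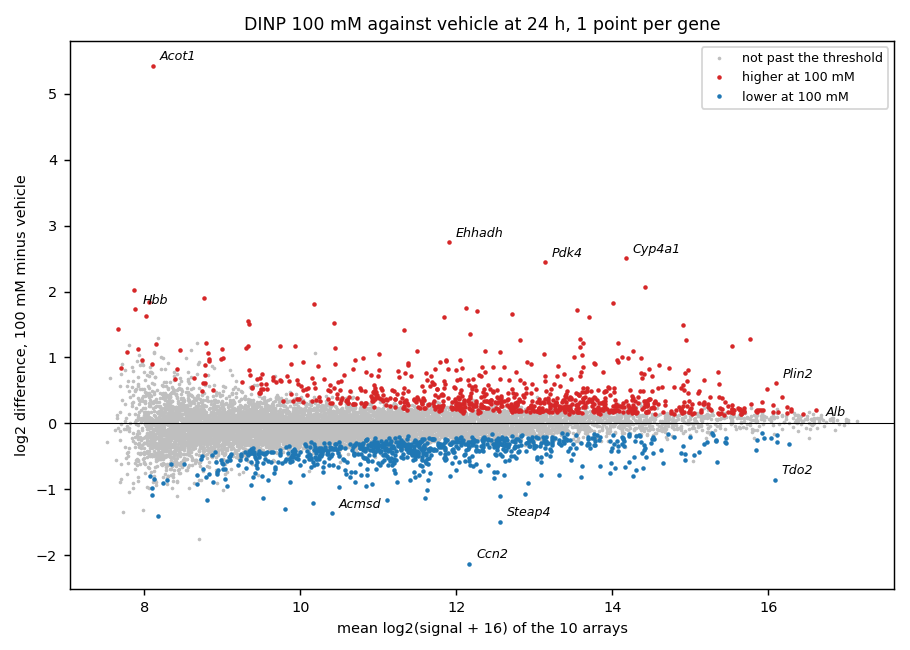
Each point is 1 of 10604 genes, placed by its mean log2(signal + 16) over the 10 arrays and its log2 difference, 100 mM minus vehicle, with red for the 800 higher and blue for the 744 lower genes. Acot1, Ehhadh, Cyp4a1 and Pdk4 stand above the rest and Ccn2 lies lowest among called genes, while Alb, the albumin gene, sits at 0.03.

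In peroxisomal β-oxidation, the 15 tested members had a median of 0.83, against -0.029 over all genes. Hacl1, which cleaves 2-hydroxy acyl-CoA, lay at 12.82 to 13.07 with vehicle and at 14.39 to 14.59 with DINP (3.07-fold, 1.62 ± 0.07, adjusted p = 1.42e-17). Ech1 and Decr2, auxiliary enzymes for unsaturated acyl chains, rose by 1.49 ± 0.07 and 1.03 ± 0.04, and Decr2 had some of the narrowest groups, 13.04 to 13.17 and 14.05 to 14.20. The multifunctional enzyme Hsd17b4 (0.83) and the carnitine acyltransferase Crot (0.77) rose less, and the phytanoyl-CoA hydroxylase Phyh (0.17) least. Acox2, the oxidase of branched-chain acids and bile acid intermediates, fell by 0.30 ± 0.08 (adjusted p = 0.00583), a call not made after median centring (-0.222). It was named after its values were seen. Acox3 and Pecr, both at 0.13, did not pass the threshold.

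Peroxins and membrane proteins of peroxisomes moved less than the enzymes inside, with 9 of 18 higher, 0 lower (1 without vehicle replicate 1) and a median of 0.26. Pex11a, which drives peroxisome division, lay at 13.56, 13.69, 13.47, 13.36 and 13.82 with vehicle and at 14.35, 14.58, 14.52, 14.60 and 14.63 with DINP (0.95 ± 0.07, adjusted p = 4.53e-12). Abcd3, a transporter of acyl-CoA into peroxisomes, rose by 0.89 ± 0.05. The membrane import factors Pex16 (0.65 ± 0.08) and Pex19 (0.48 ± 0.10), and the membrane protein Pxmp4 (0.46 ± 0.11), followed. Cat, the catalase that removes peroxisomal hydrogen peroxide, was at 0.21 ± 0.09 and did not pass (adjusted p = 0.111), although it did without vehicle replicate 5 (0.285, adjusted p = 0.0236) and with array weights (0.245).

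The ω-hydroxylation list was split by family. Cyp4a1 and Cyp4a3 rose by over 2, whereas the 6 members of the Cyp4f, Cyp4b and Cyp4v families lay between -0.35 and 0.13 and did not pass. Aldh3a2, which oxidises fatty aldehydes, was called at 0.20 ± 0.06 (adjusted p = 0.0216), a call lost without vehicle replicate 1 (0.172), 2 (0.189) or 3 (0.185) or DINP 100 mM replicate 4 (0.187) or 5 (0.182), and after quantile normalisation (0.113, adjusted p = 0.184). The median of the 9 members was 0.08. Thioesterases, in contrast, rose in 7 of 8 cases, with a median of 0.91. Acot4 was counted with the peroxisomal enzymes and is not among these 8. Beside Acot1, the mitochondrial Acot2 went from between 11.90 and 12.35 to between 13.31 and 13.60 (1.26 ± 0.08). Acot3, of peroxisomes, went from between 9.15 and 9.57 to between 10.41 and 10.66 (1.17 ± 0.12). Acot1 to Acot4 are neighbours in the GRCr8 gene table, and their probes can bind each other's transcripts. Their relatives Acot7 and Acot12 rose by 0.96 ± 0.09 and 0.86 ± 0.12, and Acot9 stood at -0.03.

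For mitochondrial β-oxidation and the carnitine shuttle the median of the 24 members was 0.65. Crat, which moves short acyl groups between carnitine and CoA, rose 3.06-fold from between 10.90 and 11.25 to between 12.49 and 13 (1.61 ± 0.15, adjusted p = 1.12e-09). The fourth treated array, at 13, stood above the other 4, which ended at 12.62. Cpt1b and Cpt1a, the muscle-type and liver-type enzymes that commit fatty acids to mitochondria, rose by 1.52 ± 0.14 and 1.09 ± 0.14. Cpt1a lay at 11.15, 11.08, 10.82, 10.65 and 11.06 with vehicle and at 12.10, 11.98, 11.95, 12.02 and 12.17 with DINP. Along the spiral, the isomerase Eci1 (1.28 ± 0.06) and the thiolase Acaa2 (1.17 ± 0.06) rose most, and the medium-chain dehydrogenase Acadm (0.86) and the trifunctional subunits Hadha (0.74) and Hadhb (0.64) stood in the middle. Those that did not pass were Acadsb (-0.55), Echs1 (0.05), Acad9 (0.11) and Acad10 (0.15), the first 2 of which act on branched or short chains. Of 7 ketone body genes 2 rose, the thiolase Acat1 (0.91 ± 0.08) and the transporter Slc16a6 (0.27 ± 0.07, adjusted p = 0.0113), and Oxct1, which uses ketones, was at -0.52 without passing.

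Fatty acid uptake, binding and activation had 13 of 22 members higher and 1 lower, with a median of 0.38. Fabp1, the liver fatty acid-binding protein, lay at 12.86, 13.07, 13.13, 12.81 and 12.89 with vehicle and at 14.24, 14.32, 14.16, 14.31 and 14.11 with DINP (2.42-fold, 1.28 ± 0.08, adjusted p = 3.84e-14). After Acsl1 and Fabp1 came the medium-chain synthetase Acsm3 (0.72 ± 0.16) and the scavenger receptor Cd36 (0.70 ± 0.14, adjusted p = 0.000814). Cd36 had close groups, 10.72 to 11.24 and 11.33 to 12.08. Acsl4, the synthetase that prefers arachidonic acid, was the member that fell (-0.50 ± 0.09). The other long-chain synthetases tested, Acsl1, Acsl3 (0.40 ± 0.10) and Acsl5 (0.48 ± 0.06), rose. Acsl4 was named after its values were seen.

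Lipid droplet genes rose in 11 of 16 cases, with a median of 0.63. G0s2, an inhibitor of the lipase Pnpla2, went from between 12.80 and 13.18 to between 14.15 and 14.19 (1.15 ± 0.09), so its treated arrays were far tighter than its vehicle arrays. Mgll, which finishes triglyceride breakdown, rose by 0.94 ± 0.09, the fusion proteins Cidea and Cidec by 0.74 ± 0.06 and 0.73 ± 0.12, and the coat protein Plin2 by 0.61 ± 0.06. The inhibitors Hilpda and G0s2 and the lipase Pnpla2 itself (0.71) thus all rose. Pnpla3, an acyl hydrolase of droplets, was called lower at -0.58 ± 0.19 (adjusted p = 0.0351), but not without vehicle replicate 1 (-0.517, adjusted p = 0.0944), 2 (-0.494, 0.106) or 4 (-0.547, 0.0847), nor without DINP 100 mM replicate 2 (-0.59, 0.0529), 3 (-0.501, 0.109) or 5 (-0.489, 0.112). It was also lost with no filter, after median centring or quantile normalisation, and with these groups alone in the fit.

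**Figure D3:**
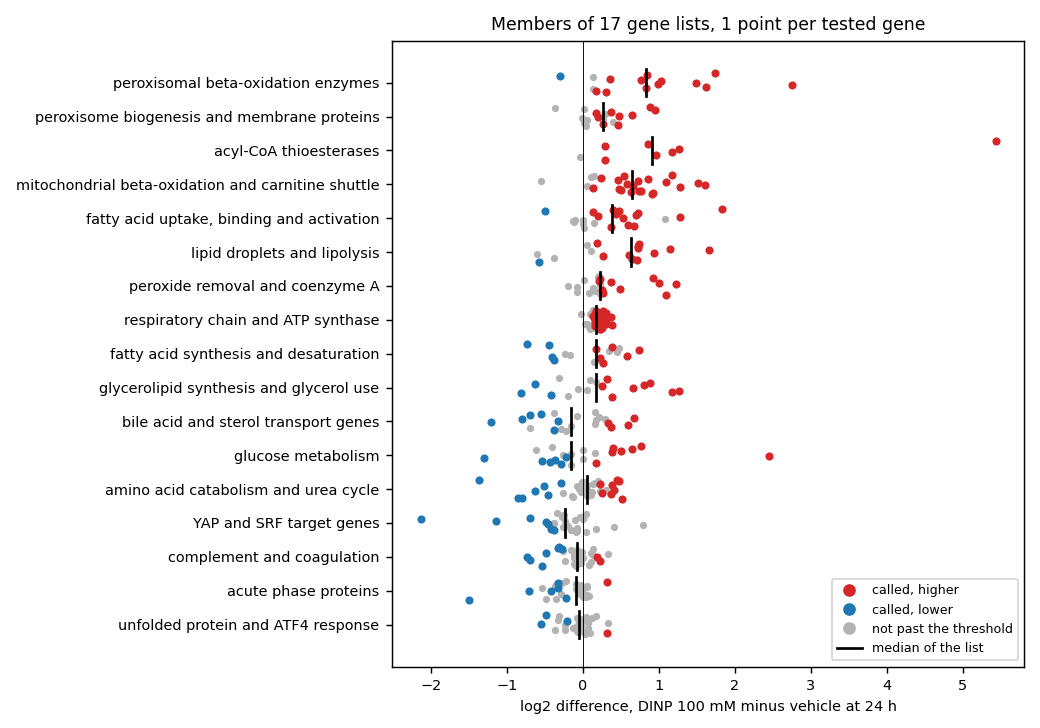
Each point is the log2 difference, 100 mM minus vehicle at 24 h, of 1 tested member of 17 gene lists, with red for higher, blue for lower and grey for members that did not pass, and a bar at each list's median. The β-oxidation, thioesterase and droplet lists have medians between 0.63 and 0.91, the respiratory chain list is a narrow cluster around 0.18, and the YAP and SRF list lies mostly left of 0.

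Genes of lipid synthesis moved both ways. In fatty acid synthesis and desaturation 6 of 17 rose and 4 fell (median 0.18). Acaca, the carboxylase that commits carbon to fatty acids, fell from 12.74, 12.86, 12.87, 12.95 and 13.05 to 12.39, 12.05, 12.20, 12.13 and 12.02 (-0.73 ± 0.08, adjusted p = 5.92e-08), and Acly, which supplies its acetyl-CoA, fell by 0.45 ± 0.10. Elovl6, an elongase, and Me1, a source of NADPH, rose by 0.74 ± 0.12 and 0.58 ± 0.08. The count of rises in this list was 3 without vehicle replicate 1, and that of falls 2 without vehicle replicate 1, DINP 100 mM replicate 4 or DINP 100 mM replicate 5. Of 17 genes of glycerolipid synthesis and glycerol use 8 rose and 3 fell. Both glycerol-3-phosphate dehydrogenases rose, Gpd1 of the cytosol from between 14.13 and 14.53 to between 15.48 and 15.70 (1.26 ± 0.09) and Gpd2 of mitochondria from between 9.04 and 9.29 to between 10.20 and 10.38 (1.17 ± 0.11). The glycerol channel Aqp7 (0.88 ± 0.07) and the acyltransferase Dgat1 (0.81 ± 0.07) rose, while Lpin1, which makes diacylglycerol, fell by 0.81 ± 0.08. Of 19 genes of cholesterol synthesis and uptake 1 rose, 2 fell and 16 did not pass, a share of calls near the 14.6% over all genes. Sqle, squalene epoxidase, fell by 0.46 ± 0.11.

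Bile acid and sterol transport genes split, with 4 of 21 higher and 6 lower. Beside Cyp7a1, the falls included Akr1d1, a reductase of the sterol ring (-0.80 ± 0.21, adjusted p = 0.00957), and Abcc2, the canalicular exporter of conjugates (14.54 to 14.73 with vehicle and 13.88 to 14.02 with DINP, -0.70 ± 0.07). Cyp8b1, which sets the cholic acid share, rose by 0.33 ± 0.08, the sterol exporter Abcg5 by 0.68 ± 0.13 and the bile acid receptor Nr1h4 by 0.59 ± 0.09. Cyp27a1, another hydroxylase of the pathway, fell by 0.32 ± 0.05.

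In glucose metabolism 7 of 21 genes rose and 6 fell (median -0.16). Fbp1, of gluconeogenesis, rose by 0.77 ± 0.06 and the liver glycogen synthase Gys2 by 0.65 ± 0.06. Ppargc1a, a coactivator of gluconeogenic and mitochondrial genes, fell by 0.54 ± 0.13. After median centring the falls numbered 2. Among 37 genes of amino acid catabolism and the urea cycle 8 rose and 7 fell. Tdo2, the first enzyme of tryptophan breakdown, fell from 16.48, 16.41, 16.58, 16.47 and 16.59 to 15.72, 15.59, 15.62, 15.63 and 15.70 (-0.85 ± 0.07, adjusted p = 8.65e-11). Kynu and Haao, which act between Tdo2 and Acmsd in that pathway, rose by 0.25 ± 0.06 and 0.41 ± 0.11. The aminotransferase Tat (-0.80 ± 0.09), the histidine lyase Hal (-0.63 ± 0.10) and the cystathionine lyase Cth (-0.51 ± 0.08) also fell.

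Of 52 subunits of the respiratory chain and ATP synthase 31 rose and 0 fell, and 51 had a difference above 0, but the median was only 0.18 and the largest 0.39. Ndufs7 of complex I (0.39 ± 0.06), Cyc1 of complex III (0.37 ± 0.06) and Ndufs3 of complex I (0.31 ± 0.05) were among them. Ndufs7 lay at 14.01 to 14.16 with vehicle and at 14.37 to 14.52 with DINP. The count was 17 after quantile normalisation, 19 without DINP 100 mM replicate 3 and 20 without vehicle replicate 4. Similar small rises were seen in 9 of 32 proteasome subunits, such as Psmb3 (0.29 ± 0.06) and Psma1 (0.28 ± 0.06), a count that was 4 after quantile normalisation or without DINP 100 mM replicate 3, and 5 without vehicle replicate 1, 2 or 4 or DINP 100 mM replicate 4 or 5.

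Among 21 genes of peroxide removal and coenzyme A 10 rose and 0 fell (median 0.22). Pank1, the kinase that starts CoA synthesis, lay at 13.37, 13.46, 13.42, 13.45 and 13.58 with vehicle and at 14.63, 14.72, 14.58, 14.76 and 14.70 with DINP (2.33-fold, 1.22 ± 0.05, adjusted p = 1.35e-18). Vnn1, which recovers pantothenate, rose by 1.10 ± 0.07, Nudt7, which cleaves CoA in peroxisomes, by 1.00 ± 0.06, and Ppcs, the next step after Pank1, by 0.49 ± 0.05. The other CoA synthesis genes of the list, Pank2 (0.22), Pank3 (-0.20), Pank4 (-0.08), Ppcdc (0.14) and Coasy (0.20), did not pass. Ephx2, the soluble epoxide hydrolase, rose by 0.93 ± 0.05. Of 16 mitochondrial carriers 6 rose and 2 fell, including the CoA carrier Slc25a42 (0.78 ± 0.12) and the dicarboxylate carrier Slc25a10 (0.59 ± 0.08) upward, and the pyrimidine carrier Slc25a33 (-0.69 ± 0.10) and the ornithine carrier Slc25a15 (-0.66 ± 0.05) downward. Of 19 secreted metabolic regulators 2 rose, Angptl4 and its partner Angptl8 (0.85 ± 0.09), while Igfbp1, a binding protein of insulin-like growth factors, fell (-0.32 ± 0.06) and Fgf21 was at 0.33 ± 0.20 (adjusted p = 0.335, but 0.0419 with these groups alone in the fit).

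Of 22 genes linked to the receptors CAR and PXR 18 did not pass and 4 rose, while over all genes 14.6% were called. The 4 were the retinal dehydrogenase Aldh1a1 (1.00 ± 0.07), the epoxide hydrolase Ephx1 (0.40 ± 0.06), the carboxylesterase Ces2c (0.39 ± 0.06) and the receptor gene Nr1i2 itself (0.34 ± 0.07). Cyp2b1, a gene of the fixed set, was not among the genes tested, so its response is not shown here. Of 4 tested targets of the aryl hydrocarbon receptor 0 were called, with Cyp1a1 at -0.27 ± 0.11 (adjusted p = 0.13), but 2 were lower after quantile normalisation, with array weights, or when the fit held just the compared groups. Among 26 genes of the NRF2 and glutathione list 2 rose and 4 fell, with Gsta4 up by 0.42 ± 0.06 and Gsta3 and the cystine carrier Slc7a11 down by 0.37 ± 0.06 and 0.50 ± 0.11. Its rises numbered 5 without vehicle replicate 5, and 1 without vehicle replicate 2 or DINP 100 mM replicate 1 or 5. The classic NRF2 targets Hmox1 (0.13 ± 0.08, adjusted p = 0.319) and Nqo1 (0.01 ± 0.10, adjusted p = 0.979) did not pass, and the interval for Nqo1 ran from -0.20 to 0.21. For the unfolded protein and ATF4 response 1 of 31 rose, 3 fell and 27 did not pass, a share of calls near the 14.6% over all genes. The chaperone Hsp90b1 fell by 0.55 ± 0.07, Hspa5 was at -0.05 ± 0.06 (95% interval -0.18 to 0.08) and Ddit3 at 0.04 ± 0.11. Of 16 p53 targets 3 rose and 4 fell, with Phlda3 up by 0.54 ± 0.10 and Sesn1 and Tp53inp1 down by 1.13 ± 0.11 and 0.59 ± 0.10, and the cell cycle inhibitor Cdkn1a at -0.14 ± 0.08. The number of p53 targets that rose was 1 without vehicle replicate 1 or DINP 100 mM replicate 4. Among 17 heat shock genes 3 rose and 1 fell. Hspe1, of the mitochondrial chaperonin, rose by 0.32 ± 0.05, Dnajb4 fell by 0.48 ± 0.10, and Hspa1a was at -0.17 ± 0.11.

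Of 30 genes of the YAP and SRF list 7 fell and 0 rose, with a median of -0.23. The list holds targets and also factors of these pathways, such as Srf and Tead1, and Tead1 was 1 of the falls (-0.42 ± 0.08). Ccn2 and Diaph3 led, and the immediate early factor Egr1 fell by 0.48 ± 0.13 (adjusted p = 0.0122). The falls of this list numbered 5 after median centring and 8 after quantile normalisation. Ccn1 was at -0.69 ± 0.21 (adjusted p = 0.0231) and Flna at -0.46 ± 0.15 (adjusted p = 0.04). The Ccn1 call was lost without any of several single arrays (-0.555 to -0.676) and with the compared groups alone. That for Flna was lost without most single arrays (-0.381 to -0.486) and after either rescaling (-0.382 and -0.403). Of 22 genes of extracellular matrix and TGF-β 3 fell and 1 rose, the matrix protein gene Sparc (0.42 ± 0.12, adjusted p = 0.0169). The call for Sparc was lost without vehicle replicate 3 (0.375) or 5 (0.377) or DINP 100 mM replicate 5 (0.371). Vim, an intermediate filament protein, went from 13.42, 13.43, 13.55, 13.53 and 13.44 to 12.55, 12.78, 12.84, 12.61 and 12.66 (-0.79 ± 0.11, adjusted p = 1.52e-06). The matrix protein fibronectin, Fn1, fell by 0.58 ± 0.09 and the collagen cross-linker Lox by 0.68 ± 0.17. Stellate cells and fibroblasts also express such genes. Of 7 tested markers of those cells 0 were called (1 was lower without vehicle replicate 1 or DINP 100 mM replicate 3), and Lrat, Hgf, Pdgfrb, Pdgfra and Lum lay below the dimmest mean tested. The log2 of their summed signal was 12.03 to 12.48 with vehicle and 12.03 to 12.14 with DINP, and its part in these falls was not tested. In bulk RNA fewer cells of a type and less RNA per cell cannot be told apart.

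Among secreted liver proteins, 7 of 32 complement and coagulation genes fell (4 after median centring) and 2 rose. The coagulation factor F5, at 12.63 to 12.69 with vehicle and 11.75 to 12.17 with DINP, fell by 0.73 ± 0.11, Klkb1 by 0.70 ± 0.12, Serpind1 by 0.53 ± 0.11 and the terminal complement component C9 by 0.49 ± 0.09. Of 27 acute phase genes 6 fell (3 after median centring) and 1 rose. Beside Steap4, both chains of the interleukin-6 receptor fell, Il6r by 0.71 ± 0.12 and Il6st by 0.42 ± 0.09, and the factor Cebpb rose by 0.32 ± 0.07. Serpina7, a thyroxine carrier, rose by 0.80 ± 0.15, while Alb, at 16.38 to 16.92 and 16.57 to 16.76, was at 0.03 ± 0.10 (95% interval -0.17 to 0.23). Of 14 apolipoproteins 2 fell and 12 did not pass, a share of calls near the 14.6% over all genes. Among 23 interferon-stimulated genes 1 rose, 2 fell and 20 did not pass, also near that share. Mx2, an antiviral GTPase, was 1 of the falls (-0.73 ± 0.19, adjusted p = 0.00936).

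Of 28 liver transcription factors and nuclear receptors 4 rose and 3 fell. Rxrg, an RXR isoform, rose from between 11.04 and 11.59 to between 12.03 and 12.36 (0.83 ± 0.10), and Foxa2 (-0.41 ± 0.10) and the glucocorticoid receptor Nr3c1 (-0.35 ± 0.07) fell. Without DINP 100 mM replicate 1 the falls numbered 5. Among 15 clock genes the PAR-domain factor Hlf was the member that rose (0.59 ± 0.08). Among 23 cell cycle genes 2 were higher and 1 lower, a share of calls near the 14.6% over all genes. The 3 were Spc24, the cyclin Ccnd1 (0.70 ± 0.13) and Myc (-0.52 ± 0.10), and without DINP 100 mM replicate 1 the falls numbered 2.

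The lower dose gave similar values from the same vehicle arrays. At 25 mM 835 genes were higher (7.87%) and 831 lower (7.84%), 15.7% in all. As both comparisons share the vehicle, the doses were set against each other directly, with no vehicle array. That test called 1 gene of 10604 (0.00943%), Ccn2, which was higher at 100 than at 25 mM by 0.68 ± 0.10 (95% interval 0.49 to 0.88, adjusted p = 0.000839). Its differences from the vehicle were -2.81 at 25 mM and -2.13 at 100 mM. Among probe sets the count was 2 of 18625 (0.0107%), the other being 1 of 2 tested probe sets of Ddx54, an RNA helicase, named after its values were seen. It lay at 6.64, 7.66, 6.94, 8.0 and 6.90 at 25 mM and at 8.41, 8.75, 8.74, 8.96 and 8.81 at 100 mM (1.5 ± 0.22, adjusted p = 0.00125), with a mean of 8.41 in the vehicle, while the other Ddx54 probe set differed by -0.05. Its mean at 25 mM, 7.23, lay below the dimmest mean tested, 7.956. Signal above background is thus not shown at that dose, and the size of the difference depends on the added constant. With the 2 doses alone in the fit neither was called (adjusted p = 0.117 for Ccn2 and 0.538 for Ddx54). At an unadjusted p under 0.05 the probe sets numbered 764.

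For the leading rises the values at 100 mM were at or below those at 25 mM, without passing. Ehhadh rose by 3.05 at 25 mM and 2.75 at 100 mM, and the difference between doses was -0.30 (95% interval -0.50 to -0.09, adjusted p = 1). The same held for Acsl1 (-0.27, -0.45 to -0.08) and Gpd2 (-0.37, -0.59 to -0.14), whose intervals leave out 0 before adjustment. For Cyp4a1 the interval was -0.31 to 0.15, for Cyp4a3 -0.29 to 0.14 and for Angptl4 -0.17 to 0.17. Of 15 peroxisomal β-oxidation enzymes 14 had a lower mean at 100 than at 25 mM, with a median of -0.08, and of 24 mitochondrial genes 17 did, with a median of -0.04. The thioesterases had 4 of 8 lower at 100 mM (median -0.01), and fatty acid uptake, binding and activation 8 of 22 (median 0.02), with 8 members called higher at 25 mM and 13 at 100 mM. These are sizes under the error of most single genes. Such counts were not particular to fatty acid genes. Of 31 unfolded protein and ATF4 genes 26 were lower at 100 than at 25 mM (median -0.03), and of 23 interferon-stimulated genes 19 (median -0.12). Of 19 cholesterol genes 3 were (median 0.10). Over all probe sets the median was -0.002, and the share of all genes lower at 100 mM was not counted. The list medians against the vehicle were 0.94 and 0.83 for the peroxisomal enzymes, 0.69 and 0.65 for the mitochondrial list, and 0.55 and 0.63 for lipid droplets, at 25 and 100 mM. Although the droplet median was higher at 100 mM, 13 of 16 droplet genes had a lower mean there than at 25 mM (median difference -0.04). A p that misses the threshold does not show that the doses act alike.

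**Figure D4:**
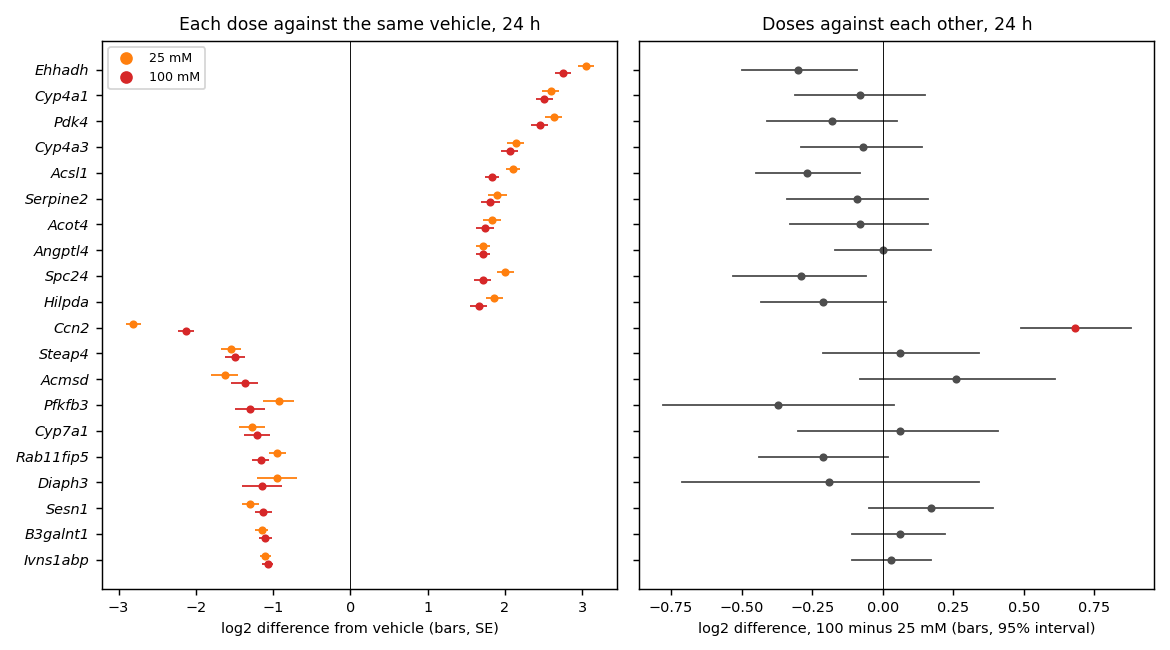
Left, log2 difference from the same vehicle arrays at 25 mM (orange) and 100 mM (red) for the 10 largest rises and falls, with bars for limma's standard error. Right, the log2 difference between the doses, 100 minus 25 mM, with 95% intervals, where Ccn2 (0.68, red) is the gene that passed the threshold.

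Against 48 h, which has its own vehicle arrays, the effect of 100 mM differed for 12 of 10604 genes (0.113%), 9 of them with a more positive (0.0849%) and 3 with a more negative (0.0283%) difference at 48 h. At an unadjusted p under 0.05 the probe sets numbered 1165. Cyp3a2, a steroid and drug hydroxylase, lay at 12.22 to 12.86 with vehicle and 11.99 to 12.58 with DINP at 24 h, and at 10.66 to 11.29 and 11.86 to 12.62 at 48 h. The effect changed by 1.54 ± 0.20 (adjusted p = 8.66e-05), from -0.19 to 1.34, and the vehicle level was the one that differed most between the times. Afm, a vitamin E carrier, went from a difference of 0.03 to 0.89 (change 0.85 ± 0.09, adjusted p = 5.42e-06), and its vehicle arrays too were lower at 48 h, at 11.90 to 12.17 against 13.33 to 13.45. Bdh1, a ketone body dehydrogenase, went from 0.11 to 0.92 (change 0.80 ± 0.14, adjusted p = 0.00845).

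Fabp1 already rose at 24 h, and its difference grew from 1.28 to 1.97 (change 0.70 ± 0.11, adjusted p = 0.00311), with treated arrays at 14.58 to 14.80 at 48 h. Ces2c went from 0.39 to 0.87 and Ly6i, a membrane-anchored surface protein, from 0.55 to 1.10. The lipoprotein genes Apon and Apoa2 stood at -0.01 and 0.00 at 24 h and at 0.49 and 0.44 at 48 h. Slc25a15, which fell at 24 h (-0.66), stood at -0.29 at 48 h. In the other direction, Il1r2, the decoy receptor of interleukin-1, was at -0.54 ± 0.20 at 24 h (adjusted p = 0.0661, but 0.0445 without DINP 100 mM replicate 3 and 0.0379 without vehicle replicate 5, 0.0457 with the 60th percentile filter, 0.0478 with the compared groups alone and 0.0432 with array weights) and at -2.13 at 48 h (change -1.59 ± 0.28, adjusted p = 0.00831). S100a6, a calcium-binding protein, went from -0.17 to -1.09 (change -0.91 ± 0.16) and Defb1, an antimicrobial peptide, from 0.37 to -0.17 (change -0.54 ± 0.10, adjusted p = 0.0144). The call for Apoa2 was lost without 24 h vehicle replicate 3, 48 h vehicle replicate 2, 3 or 5, 24 h DINP replicate 1, 2 or 5 or 48 h DINP replicate 3 or 5, with changes of 0.40 to 0.437. That for Ly6i was lost without DINP 100 mM 48 h replicate 1 (0.526), DINP 100 mM 24 h replicate 2 (0.536) or vehicle 24 h replicate 3 (0.532), and that for Slc25a15 was lost without DINP 100 mM 48 h replicate 1 (0.332) or 4 (0.356), vehicle 48 h replicate 2 (0.362) or DINP 100 mM 24 h replicate 5 (0.359). With no variance trend the calls for Defb1 and Ces2c (adjusted p = 0.0747 for each), Apoa2 (0.131) and Slc25a15 (0.117) were lost, as were those for Defb1 (0.183), Slc25a15 (0.183) and Apoa2 (0.327) after median centring, and that for Apoa2 with no filter (0.0605). The leading 24 h changes were near their 48 h values, as for Ehhadh (2.75 and 2.65), Cyp4a1 (2.51 and 2.38), Ech1 (1.49 and 1.48) and Ccn2 (-2.13 and -2.21), with adjusted p from 0.961 upward for the change.

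**Figure D5:**
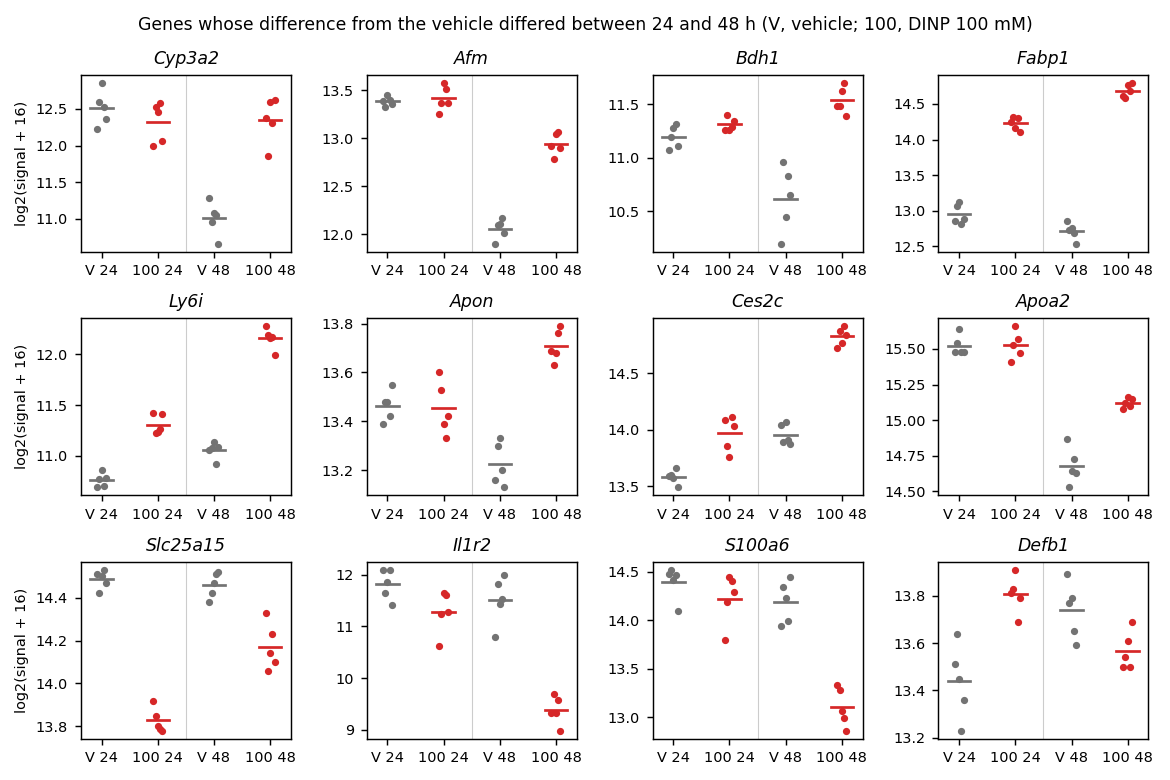
Each point is 1 array's log2(signal + 16) for the 12 genes whose DINP 100 mM effect differed between times, in vehicle (V, grey) and DINP 100 mM (100, red) cells at 24 and 48 h, with lines for means of 5 arrays. For Cyp3a2, Afm, Bdh1 and Apoa2 the vehicle arrays are lower at 48 h than at 24 h, while for Il1r2 and S100a6 the 48 h treated arrays lie lowest.

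Array quality was alike in both groups by several measures. The median log2 signal of an array was 8.61 to 8.77 with vehicle (mean 8.69) and 8.53 to 8.77 with DINP (mean 8.61). Pairs of arrays within a group correlated at 0.9536 to 0.9589 across probe sets. The 3' minus 5' log2 signal was 1.27 to 1.40 with vehicle and 1.28 to 1.41 with DINP for β-actin, and 0.15 to 0.22 and 0.14 to 0.20 for GAPDH. The 5S rRNA control probe set, however, was brighter with DINP, at 2143 ± 461 signal units (SD, n = 5) against 1037 ± 180, a log2 difference of 1.03 (exact permutation test, 2-sided, p = 0.0079, the smallest 5 against 5 can give, and 0.024 adjusted over 3 control families). Its part in the falls and rises above was not tested. The poly-A spike controls lay at 3411 ± 299 with DINP and 3022 ± 118 with vehicle. By the same permutation test their adjusted p was 0.048 on linear signals and 0.17 on the log2 scale. Of 8 hepatocyte markers 1 was called, Tat, and the log2 of their summed signal was 19.22 to 19.50 with vehicle and 19.24 to 19.36 with DINP. Of the 9 Kupffer, 7 stellate, 5 endothelial and 3 cholangiocyte markers tested 0 were called, and 8 of 9 leukocyte markers lay below the dimmest mean tested. Of 2 erythroid markers tested Hbb was called (1.73), and Alas2 was at -0.03.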

How the data were processed

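The 10 arrays compared, and 15 others of the series for dose and time, are Affymetrix rat expression arrays hybridised with biotin-labelled cRNA, per the labels' protocols. The authors deposited a linear intensity for each probe set on each array. The submitters' processing notes name MAS5, and its version is not given in the sources used here. Each array had already been scaled, as the trimmed means, 2% off either end, lay between 1500.65 and 1500.76. Detection calls were not used here. The number of arrays limits the precision.

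From the 31099 probe sets, 57 controls were dropped, log2(signal + 16) was computed, and the 40% of probe sets with the lowest means over 30 arrays were left out, so that 18625 were tested. The scale understates the change of dim genes. Gene symbols came from the platform annotation, updated through Entrez IDs to the GRCr8 gene table for 20758 probe sets, and 20826 had 1 symbol, 436 several and 9780 were unnamed here. A gene is its brightest tested probe set with 1 symbol. Of 2730 genes with several tested probe sets, 580 had at least 1 called and 0 were called in opposite directions. Differences were fitted with limma 3.58.1 in R 4.3.3, all 6 groups together (24 residual degrees of freedom), with a variance trend and Benjamini-Hochberg adjustment over all tested probe sets, threshold 0.05. Intervals are 95%, unadjusted. On simulated data with 200 changed probe sets, the fit recovered 88 of 100 with a log2 size of 1 and 41 of 100 with 0.5, with 6 false among 135 calls. The simulated noise was normal and independent between probe sets, and 200 of 18625 were changed, whereas 12.3% were called here. These rates therefore need not hold for the real comparison.

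Replicate numbers follow sample order, since the labels hold none. The members, the 42 gene lists and the tests were chosen with earlier results of these data known. Named genes are the 10 largest rises and falls with arrays that do not overlap and both means at or above the dimmest tested mean, up to 5 each way with 1 mean below it, up to 5 called members per list, a fixed set typical of liver and peroxisome proliferators, and up to 5 each way for dose and time. Acox2, Acsl4, Pnpla3, Ddx54, Apon and Apoa2, and list members beyond these, were named after their values were seen. Alternatives were the added constant, the filter, median centring, quantile normalisation, only the compared groups, no trend, array weights, a block by array round, the probe set of a gene, and leaving out each array.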

Additional observations from a re-analysis of the deposited data

Results flagged for a closer look

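The effect of DINP 100 mM differed between 24 and 48 h for 12 genes by the test of the difference in limma, and the values below are the 48 h effect minus the 24 h effect (log2). It was more positive at 48 h for Cyp3a2 (1.54), Afm (0.85), Bdh1 (0.80), Fabp1 (0.70), Ly6i (0.56), Apon (0.50), Ces2c (0.49), Apoa2 (0.44) and Slc25a15 (0.37, a smaller fall). It was more negative for Il1r2 (-1.59), S100a6 (-0.91) and Defb1 (-0.54).

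A control measure outside the comparison of genes also stood out. The 5S rRNA probe set was higher by 1.03 (log2) at 100 mM than with vehicle.

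In 15 of 296 groups of 5 arrays examined over the genes named, 1 array lay far from the others, and chance alone flags about 1 in 20. Vehicle replicate 5 was the stray array for Acsl1 (13.34, nearest other 13.06), Acly (15.21, nearest 14.68) and Tat (14.90, nearest 14.66) on the high side, and for Nudt7 (12.86, nearest 13.02), Hspa5 (15.53, nearest 15.66) and S100a6 (14.09, nearest 14.41) on the low side. Other vehicle arrays were low for Ccn2 (replicate 3, 13.01, nearest 13.24), Cyp1a1 (replicate 1, 15.34, nearest 15.46) and Slc7a11 (replicate 4, 10.41, nearest 10.78). Among DINP 100 mM arrays, replicate 3 was high for B3galnt1 (12.29, nearest 11.98) and Rxrg (12.36, nearest 12.13) and low for Acaa2 (16.07, nearest 16.13). Replicate 5 was low for Hbb (7.53, nearest 8.97) and high for Pex19 (11.31, nearest 11.20), and replicate 4 was high for Crat (13, nearest 12.62).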

How the results depend on the processing

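The count of probe sets called at 100 mM against vehicle stayed within 1.5 times its value under the alternatives run (1712 to 2917). Of 179 named genes, 142 kept their side of the threshold at 24 h in every alternative run, 37 crossed it in at least 1, and 8 of the 142 changed sign. Without single arrays the count between doses was 2 to 3, and at 25 mM it was 1960 to 2443 in place of 2485. For 100 against 25 mM the count was 1 with the 60th percentile filter and 0 when the fit held just these groups. For the difference between times it was 25 with array weights, 24 with quantile normalisation, 9 with median centring and 8 with no variance trend, in place of 12, and 10 to 21 when single arrays were left out, with 21 without vehicle 48 h replicate 1 and 20 without vehicle 24 h replicate 2. The causes were not tested. The 8 genes that changed sign were not called in any of these. After quantile normalisation Afm was at -0.018, Alb at -0.005, Apoa2 at -0.099 and Nqo1 at -0.07, and after median centring Apon was at 0.071 and Hspa5 at 0.036. When single arrays were left out, Afm ranged from -0.009 to 0.073, Alb from -0.034 to 0.10, Apoa2 from -0.028 to 0.035, Apon from -0.049 to 0.019, Ddit3 from -0.021 to 0.091, Nqo1 from -0.028 to 0.038 and Rxra, which was dim in both groups, from -0.121 to 0.235. With the round of array numbers as a replicate block, 2357 probe sets were called in place of 2288. After group means were removed, treated and vehicle arrays of the same round correlated at -0.006 to 0.099. Those of different rounds correlated at -0.07 to 0.072. Of 5 treated arrays 2 correlated best with the vehicle array of their own round. Whether arrays of a round form pairs cannot be told from these values. Under the block the difference between times was called for 16 probe sets in place of 12, and the count between doses was 2 in both fits. The poly-A spike controls, not past the threshold on the log2 scale (adjusted p = 0.17), were past it as linear signals (exact permutation test, adjusted p = 0.048). For dim genes, signal over background limits what can be shown.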
